A study of Homo sapiens with 6 samples.

Results

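To examine how the nuclear receptor family is expressed in bladder cancer cells and how each member differs after FOXC1 disruption, the 46 listed receptor genes were looked up in a table of RNA-seq counts from J82 cells, a human bladder cancer line that is widely used and was grown in serum-containing medium. The table held 3 control libraries, from cells that carried the vector, and 3 libraries labelled FOXC1 KO. The latter came from cells that had received a lentiviral CRISPR/Cas9 vector against FOXC1, a forkhead transcription factor. The sample titles name the line, the group and the replicate, and no growth conditions. Members were taken by symbol from a list of the family that was drawn up with earlier results of these libraries known. Of the 46 genes, 45 were matched to a row among 57820 rows, 43 had at least 1 count in some library, 34 had enough counts to be tested, and 30 were expressed, here meaning a mean of at least 1 CPM (read counts scaled to a common library size) over the 6 libraries. NR2E3 was not matched through the annotation used and is not analysed here. The study's methods speak of knockout clones, but the sources do not say how many there were or whether the libraries came from separate cultures, so p-values measure only the spread between these libraries.

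Nuclear receptors are transcription factors that bind DNA directly, and many are switched by small fat-soluble ligands such as steroid and thyroid hormones, vitamin A and D derivatives, oxysterols and fatty acids. A large group pairs with retinoid X receptors (RXRs) on repeats of a short half-site, the steroid receptors act mostly as pairs of themselves, and orphan members have no settled natural ligand. Receptors recruit coactivators or corepressors depending on ligand, and in the urothelium PPARG and the retinoic acid receptors are known for their part in differentiation.

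The libraries held 18408134 to 25350908 counts, and a gene with 3 counts, taken as the floor, lay at 0.118 to 0.163 CPM. FOXC1 transcript did not check the labels, since it stood at 18.2 ± 1.21 CPM in control libraries and 22.5 ± 1.495 CPM in libraries labelled KO (SD, n = 3 each), or 0.30 higher on the log2 scale (SE 0.091, edgeR adjusted p 0.0127). Edited cells can keep the transcript of a disrupted gene, and the study's methods checked the knockout on protein, which these counts do not measure. Directions are given between libraries labelled KO and control. The 4 simple epithelial keratins were expressed, and 3 of them were lower in libraries labelled KO (summed level 3018 to 3839 CPM in control and 2367 to 2647 CPM in KO libraries). Of 6 urothelial markers only GATA3 was expressed, with a log2 fold change of -0.42, and UPK3A was at 0 in all libraries. Of the markers of other cell types, none of the 4 leukocyte markers was expressed and CD3E was at 0, while CDH5 was the 1 endothelial marker called, higher, with a summed endothelial level of 0.134 to 0.275 CPM in control and 0.991 to 1.304 CPM in KO libraries. The fibroblast sum was 70.6 to 71.6 CPM in control and 63.7 to 82.3 CPM in KO libraries, with DCN lower and COL1A1 higher, and the smooth muscle sum was at most 1.07 CPM. CDH5 had enough counts to be tested only because of its KO libraries, with 0, 0 and 1 counts in control libraries. The part of these shifts in the receptor results was not tested.

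Of the 34 tested receptor genes, 10 fell and 2 rose in libraries labelled KO. In these bulk libraries fewer cells expressing a gene and less transcript per cell cannot be told apart. Calls required an adjusted p below 0.05 in edgeR's quasi-likelihood test together with a change of more than 1.3-fold. The lower members made up 29.41% of those tested, where 8.39% of all 15647 tested genes were lower, and the higher members made up 5.882%, where 7.57% of all tested genes were higher. RORB, NR6A1, HNF4G, NR3C2, NR1H3, RARG, THRA, PPARG, RORA and NR1D1 were lower, and NR4A3 and NR5A2 were higher. NR4A3 had enough counts to be tested only because of its KO libraries, so its place among the higher members depends on its level there. The median log2 fold change over the tested members was -0.168, with 22 of 34 below 0, against a median of -0.001 over all tested genes. Another 4 members passed the adjusted p but not the fold change (RARA and ESRRA on the lower side, RARB and PPARA on the higher side), and 18 did not pass the adjusted p. The groups did not overlap for 14 members on the lower side and 6 on the higher side, among them all 12 called members, where 20.8% and 20.5% of all tested genes did not overlap in those directions and 41.3% in either. DESeq2 called 10 members lower and 1 higher, where it called 5.78% and 6.07% of the genes it tested.

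**Figure D1:**
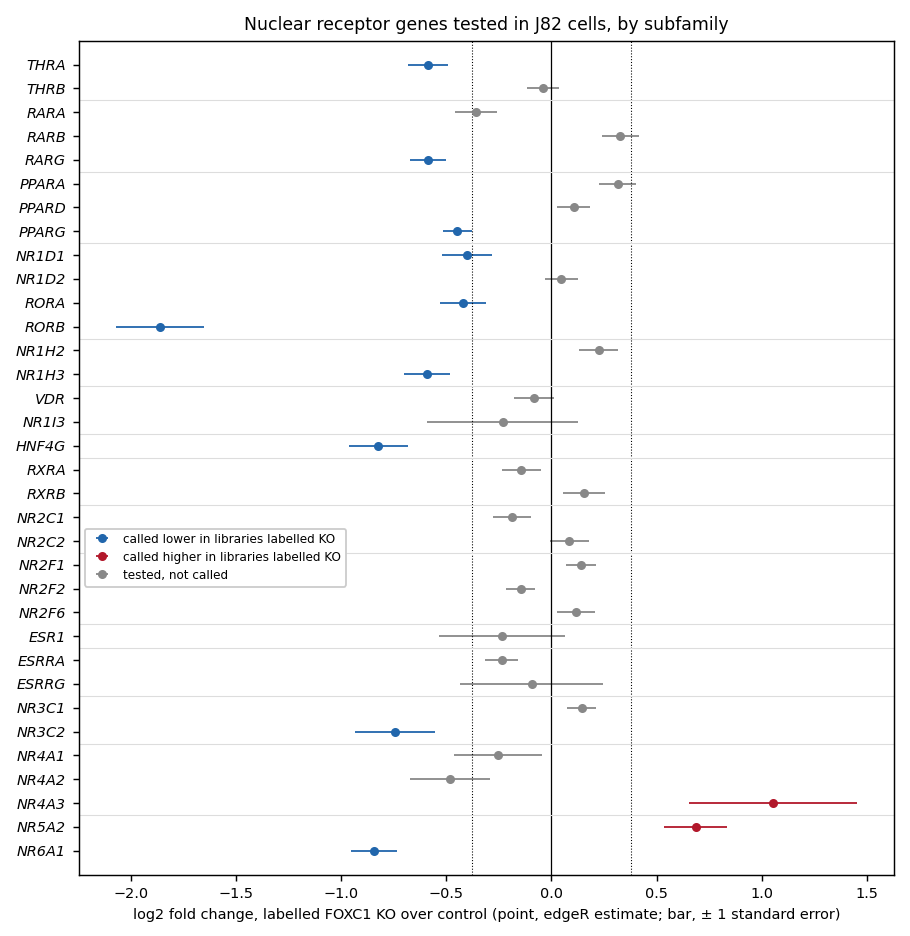
Log2 fold change (libraries labelled FOXC1 KO over control, horizontal axis) of the 34 tested nuclear receptor genes, ordered by subfamily with thin lines between subfamilies. Points are edgeR estimates, bars are 1 standard error on each side, and dotted lines mark a 1.3-fold change. RORB lies farthest left at -1.86, and NR4A3 lies farthest right at 1.06 with the widest bar of the called genes.

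NR2F2 (COUP-TFII), an orphan receptor of development, had the highest transcript level of the family per length of annotated exon, a mean of 37.2 CPM per kilobase over the 6 libraries, and its relative NR2F1 had 17.8. Next came ESRRA (15.7), an orphan receptor of mitochondrial genes, the glucocorticoid receptor NR3C1 (15.3), NR2F6 (13.8), the clock receptor NR1D2 (10.4) and the oxysterol receptor NR1H2 (9.00). The ranges over libraries of the CPM per kilobase overlapped among NR2F1, ESRRA and NR3C1 and among ESRRA, NR3C1 and NR2F6, so these neighbours were not separated beyond their spread. The ranges of NR1D2, NR1H2, PPARD and PPARG overlapped as well. In control libraries alone PPARG (10.3) was above NR1D2 (10.2) and NR1H2 (8.32). PPARD and PPARG both stood at 8.94 CPM per kilobase, and RORB (0.201) and the immediate early receptor NR4A1 (0.221) had the lowest means of the 30 expressed members. Their ranges over libraries overlapped, and in control libraries alone NR4A1 was the lower (0.241 against 0.316 CPM per kilobase). Among tested members, NR1I3, ESR1, ESRRG and NR4A3 were below a mean of 1 CPM. The estrogen receptor gene ESR1, for example, had 0.771 ± 0.0887 CPM in control and 0.666 ± 0.153 CPM in KO libraries (SD, n = 3 each).

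**Figure D2:**
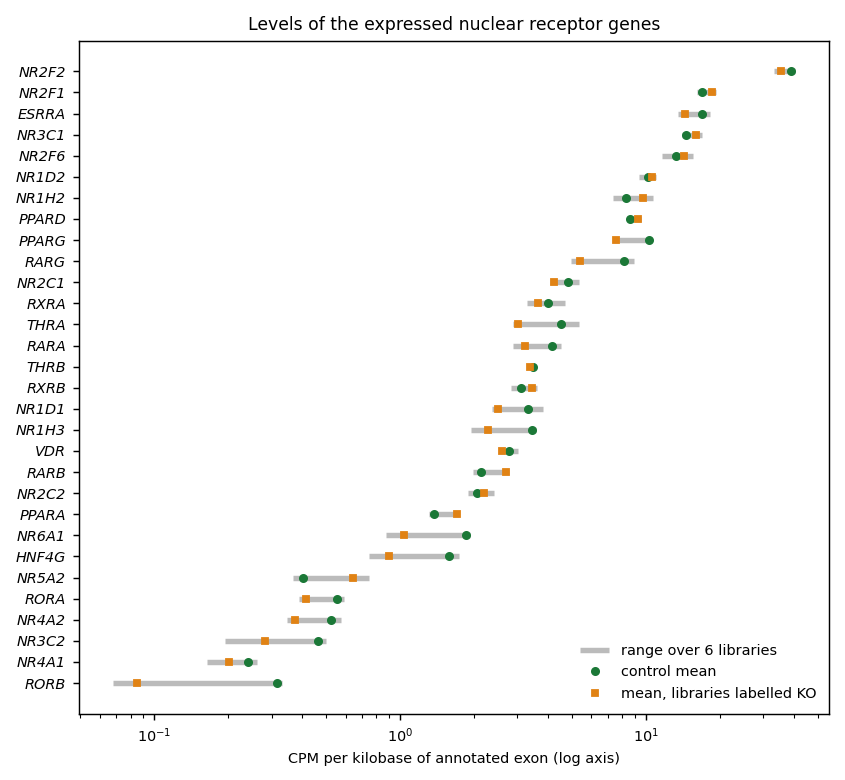
CPM per kilobase of annotated exon (log axis) of the 30 expressed receptor genes, ordered by the mean over 6 libraries. Circles are control means, squares are means of libraries labelled FOXC1 KO, and grey bars span the lowest to the highest library. NR2F2 stands alone at the top, and RORB at the bottom has well separated group means.

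The other 11 matched members had too few counts to be tested. PGR and NR0B1 had 0 counts in all 6 libraries, which allows up to 3 counts per library. The bile acid receptor NR1H4 had 3, 10 and 7 counts in control and 1, 0 and 0 in KO libraries, and RXRG had 5, 8 and 3 in control and 0, 1 and 2 in KO libraries. In both genes the control counts lay above all KO counts, with no test. HNF4A, NR1I2, NR2E1, ESR2, ESRRB, NR5A1 and NR0B2 had at most 7 counts in any library.

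To look for shared letters near the start of the receptor genes, promoter windows from RefSeq (GRCh38.p14, 250 bases before and 50 after each annotated start) were searched on both strands. Of the members, 40 had windows, 95 in all, and 24 had more than 1, which can overlap each other. The forkhead core TGTTTA, the letters that forkhead factors are known to bind, was in 15 of the 95 member windows (15.8%) and in 12.3% of all 35116 windows. Among members called lower it was in 3 of 21 windows, all of PPARG. The receptor half-site AGGTCA was in 16 member windows (16.8%) against 13.8% of all windows, and in 4 of the 21 windows of lower members, 1 of NR1H3 and 3 of PPARG. The repeat GTTCACNNNNNGTTCAC, taken from the known retinoic acid response element of RARB itself, was in 4 of all windows (0.0114%), and 1 of them was that of RARB. In the windows printed here no matched words overlap. A match is a description of the letters, and no binding was measured here.

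The following windows are shown because each holds a receptor half-site or its repeat beside a member whose level or share differed, and capitals mark the matched letters. In RARB (chr3:25428013-25428312, plus strand) the repeat spans bases 52 to 36 before the start. In PPARG (chr3:12288810-12289109, plus strand) the forkhead core spans bases 80 to 75 and the half-site bases 14 to 9 before the start. In NR1H3 (chr11:47248050-47248349, plus strand) the half-site spans bases 140 to 135 before the start, and in NR5A2 (chr1:200027460-200027759, plus strand) bases 84 to 79.
RARB: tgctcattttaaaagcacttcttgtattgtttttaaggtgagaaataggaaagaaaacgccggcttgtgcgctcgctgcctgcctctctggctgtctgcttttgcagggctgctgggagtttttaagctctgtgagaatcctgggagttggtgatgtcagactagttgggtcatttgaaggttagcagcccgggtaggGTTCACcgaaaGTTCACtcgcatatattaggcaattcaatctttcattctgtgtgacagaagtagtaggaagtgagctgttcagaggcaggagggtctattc
PPARG: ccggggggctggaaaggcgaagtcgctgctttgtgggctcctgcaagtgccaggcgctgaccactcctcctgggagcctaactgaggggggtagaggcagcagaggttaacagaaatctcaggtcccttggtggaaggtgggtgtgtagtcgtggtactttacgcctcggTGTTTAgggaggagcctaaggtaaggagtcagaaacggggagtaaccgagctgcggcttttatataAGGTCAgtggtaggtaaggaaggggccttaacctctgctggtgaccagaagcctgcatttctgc
NR1H3: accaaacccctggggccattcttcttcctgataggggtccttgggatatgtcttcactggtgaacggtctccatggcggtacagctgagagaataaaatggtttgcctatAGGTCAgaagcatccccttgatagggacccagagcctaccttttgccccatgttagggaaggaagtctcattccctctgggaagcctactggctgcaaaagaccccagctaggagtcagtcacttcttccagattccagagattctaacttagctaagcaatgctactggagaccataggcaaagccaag
NR5A2: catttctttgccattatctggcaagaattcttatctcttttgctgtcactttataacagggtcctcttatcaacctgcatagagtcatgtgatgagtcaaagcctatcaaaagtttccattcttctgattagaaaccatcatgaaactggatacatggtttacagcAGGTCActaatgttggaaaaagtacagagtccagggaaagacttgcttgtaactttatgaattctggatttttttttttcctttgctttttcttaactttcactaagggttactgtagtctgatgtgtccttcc

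The retinoic acid receptors bind all-trans retinoic acid as partners of RXRs, and of the 3 genes RARG was called lower. RARG (ENSG00000172819.12, GRCh37 chromosome 12, 53604351 to 53626764, minus strand), the main retinoic acid receptor of epithelia, had 45.95, 40.0 and 39.2 CPM in control and 28.5, 29.1 and 25.5 CPM in KO libraries. All KO values lay below all control values, and RARG fell by 0.59 on the log2 scale (SE 0.086, edgeR adjusted p 4.61e-06). RARA had 21.4, 18.6 and 19.1 CPM in control and 14.9, 17.4 and 13.7 CPM in KO libraries, also without overlap. Its log2 fold change of -0.36 (SE 0.10, edgeR adjusted p 0.00698) was under the 1.3-fold threshold, which it passed without KO replicate 2 (-0.46), without control replicate 2 (-0.40) and without control replicate 3 (-0.38), and the adjusted p was 0.0571 without KO replicate 3. RARB, whose window with the repeat is printed above, had 18.8, 21.3 and 20.6 CPM in control and 25.1, 25.1 and 26.1 CPM in KO libraries. Every KO value lay above the control values, and the log2 fold change of 0.33 (SE 0.087, edgeR adjusted p 0.00486) was under the fold threshold. Expressed as shares of the summed RAR level per length, RARG made up 56.3 ± 1.48% (SD, n = 3) in control and 47.7 ± 1.14% (SD, n = 3) in KO libraries, and RARB 14.9 ± 1.80% and 23.8 ± 2.01%. For both the exact permutation p, two-sided, was 0.1, the smallest that 3 libraries against 3 allow.

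Of 9 tested retinoic acid target genes, 4 fell (44.44%) and 2 rose (22.22%), where 8.39% and 7.57% of all tested genes did. DHRS3, which reduces retinal, fell by 1.57 on the log2 scale (SE 0.087, edgeR adjusted p 2.20e-14). CRABP2, which carries retinoic acid to the nucleus, had a log2 fold change of -1.33 at a low level (1.91 ± 0.169 CPM in control and 0.726 ± 0.313 CPM in KO libraries, SD, n = 3). RARRES3 (-0.76) and RARRES1 (-0.58), named for their response to retinoids, were lower too. RARRES1 shares 292 exon bases with MFSD1 on the opposite strand, which stood at 182 CPM with a log2 fold change of -0.16. CYP26B1, which degrades retinoic acid, rose by 0.85 on the log2 scale (SE 0.095, edgeR adjusted p 4.65e-08), and STRA6, a membrane receptor for retinol binding protein, by 0.52. The members that moved thus include genes of retinoid handling in both directions.

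Of the thyroid hormone receptors, THRA was called lower and THRB was not called. THRA (ENSG00000126351.8, chromosome 17, 38214543 to 38250120, plus strand) had 39.1, 29.9 and 30.7 CPM in control and 22.6, 22.7 and 21.0 CPM in KO libraries. The groups did not overlap, and THRA fell by 0.59 on the log2 scale (SE 0.096, edgeR adjusted p 2.10e-05). THRB had a log2 fold change of -0.04 (SE 0.078, edgeR adjusted p 0.739), with an approximate 95% interval of -0.19 to 0.11. The share of THRA in the summed level per length of both receptors was 56.3 ± 4.27% (SD, n = 3) in control and 47.0 ± 0.910% (SD, n = 3) in KO libraries (exact permutation p 0.1, two-sided, the smallest possible). THRA shares 473 exon bases with NR1D1 on the opposite strand, both were called lower, and without a stated strand setting reads in that stretch cannot be told apart. Of the thyroid hormone genes, CRYM, which binds thyroid hormone in the cytosol, had a log2 fold change of -1.15 at under 1 CPM (not called without control replicate 2 or KO replicate 2 or 3, edgeR adjusted p up to 0.0779), and the activating deiodinase DIO2 had 0.04 (edgeR adjusted p 0.737).

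PPARs bind fatty acids and their derivatives, and PPARG, the regulator of fat cell and urothelial differentiation, had the highest CPM of the called members. PPARG (ENSG00000132170.15, chromosome 3, 12328867 to 12475855, plus strand) had 121, 126.8 and 122.9 CPM in control and 91.7, 87.8 and 92.4 CPM in KO libraries. The groups lay well apart, and PPARG fell by 0.45 on the log2 scale (SE 0.069, edgeR adjusted p 1.04e-05). PPARA, the receptor of fatty acid oxidation, had a difference of the opposite sign, from 18.2 ± 0.783 to 22.6 ± 0.307 CPM (SD, n = 3). This log2 fold change of 0.32 (SE 0.088, edgeR adjusted p 0.00691) was under the fold threshold, with an adjusted p of 0.0614 without control replicate 3. PPARD had a log2 fold change of 0.11 (SE 0.079, edgeR adjusted p 0.338). Within the summed PPAR level per length, PPARG made up 50.8 ± 1.502% (SD, n = 3) in control and 40.8 ± 1.56% (SD, n = 3) in KO libraries. PPARD, at 42.4 ± 1.49% and 49.99 ± 1.58%, was the larger share in the KO libraries on this scale, which rests on annotated exon length. In CPM, without the length, PPARG stayed above PPARD in the KO libraries (90.6 ± 2.47 against 41.3 ± 2.02 CPM, SD, n = 3). The PPARG and PPARD shares both had an exact permutation p of 0.1, two-sided, the smallest possible.

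Of 13 tested PPAR target genes, 4 fell (30.77%) and 1 rose (7.692%), where 8.39% and 7.57% of all tested genes did. The higher share was thus near that of all tested genes. The lipid carrier FABP4 fell by 1.81 on the log2 scale (SE 0.22, edgeR adjusted p 1.57e-07), the fatty acid uptake receptor CD36 by 1.21 and the lipid droplet coat gene PLIN2 by 0.44. PDK4, a kinase that restrains pyruvate oxidation, had a log2 fold change of -0.89. ANGPTL4, an inhibitor of lipoprotein lipase, rose from 2.33 ± 0.355 to 6.15 ± 0.343 CPM (SD, n = 3), by 1.40 on the log2 scale (SE 0.15, edgeR adjusted p 1.54e-08). The fatty acid oxidation genes CPT1A, CPT2, ACADM, ACADVL, HADHA and SLC25A20, the last a carrier, were not called, with log2 fold changes between -0.15 and 0.20.

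The clock receptors are transcriptional repressors (NR1D1 and NR1D2, the REV-ERBs) and activators (the RORs) that compete for the same sites in clock genes. RORB (ENSG00000198963.6, chromosome 9, 77112251 to 77308093, plus strand), known mainly from brain and retina, had 3.03, 3.19 and 2.91 CPM in control and 0.652, 0.912 and 0.892 CPM in KO libraries. The lowest control value was more than 3 times the highest KO value, and RORB fell by 1.86 on the log2 scale (SE 0.21, edgeR adjusted p 4.43e-08), a fold change of 3.64. RORA (ENSG00000069667.11, chromosome 15, 60780483 to 61521501, minus strand) had 8.51, 9.54 and 10.1 CPM in control and 6.85, 6.62 and 7.60 CPM in KO libraries. The groups did not overlap, with a log2 fold change of -0.42 (SE 0.11, edgeR adjusted p 0.00596), which was under the fold threshold without control replicate 3 (-0.36) and without KO replicate 2 (-0.37). NR1D1 (ENSG00000126368.5, chromosome 17, 38249046 to 38256842, minus strand) had 10.1, 7.98 and 8.13 CPM in control and 6.19, 6.70 and 6.80 CPM in KO libraries. Control replicate 1 was the highest, and the log2 fold change of -0.40 (SE 0.12, edgeR adjusted p 0.0112) was -0.30 without it (edgeR adjusted p 0.0537) and was under the fold threshold without KO replicate 1 (-0.37). NR1D2, at 59.2 ± 4.75 CPM in control and 61.2 ± 3.76 CPM in KO libraries (SD, n = 3), had a log2 fold change of 0.05 (SE 0.079, edgeR adjusted p 0.701). Its sign changed without control replicate 1 (-0.02).

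Of 13 tested clock partner genes, 8 fell and 0 rose in edgeR, where 8.39% and 7.57% of all tested genes did. At an unadjusted p under 0.05 there were 10 lower and 1 higher, and DESeq2 called 8 lower and 0 higher, where it called 5.78% and 6.07% of all genes it tested. The period gene PER2, a repressor of the clock loop, fell by 1.23 on the log2 scale (SE 0.10, edgeR adjusted p 1.30e-10), from 16.8 ± 0.420 to 7.18 ± 0.183 CPM (SD, n = 3). The cryptochrome gene CRY1, its partner, fell by 0.84, DBP, a clock output activator, by 1.06 and PER3 by 0.54. CRY2 (-0.58), HLF (-1.17), NFIL3 (-0.46) and BHLHE41 (-0.44) were lower as well, and 8 genes were called lower in each of the 6 fits that left out 1 library. The activator CLOCK had a log2 fold change of 0.29 (edgeR adjusted p 0.00477) and its partner ARNTL of -0.24 (edgeR adjusted p 0.0233), both under the fold threshold. NPAS2, TEF and BHLHE40 did not pass the adjusted p. DBP shares 661 exon bases with SPHK2 on the opposite strand.

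**Figure D3:**
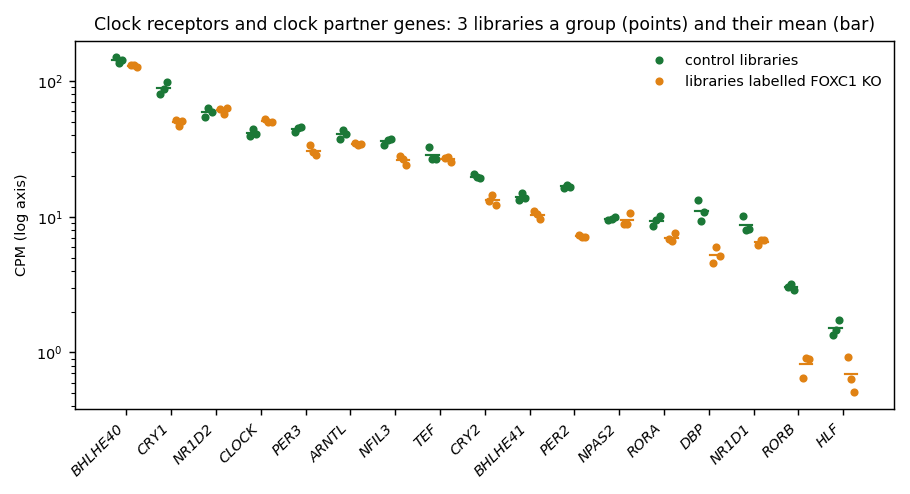
CPM (log axis) of the 4 clock receptors and 13 tested clock partner genes in each of 3 control libraries and 3 libraries labelled FOXC1 KO (points) with group means (bars), in order of the mean over all libraries. RORB, HLF, DBP and PER2 have the widest gaps between the groups, while NR1D2 and NPAS2 overlap.

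The oxysterol receptors NR1H2 (LXR beta) and NR1H3 (LXR alpha) sense cholesterol derivatives. NR1H3 (ENSG00000025434.14, chromosome 11, 47269851 to 47290584, plus strand) had 16.3, 15.8 and 14.7 CPM in control and 9.83, 12.2 and 8.84 CPM in KO libraries. The KO values lay below all control values, and NR1H3 fell by 0.59 on the log2 scale (SE 0.11, edgeR adjusted p 0.000129). NR1H2 had 53.0, 41.0 and 39.3 CPM in control and 49.8, 57.0 and 48.5 CPM in KO libraries. Control replicate 1 lay among the KO values, and the log2 fold change of 0.22 (SE 0.094, edgeR adjusted p 0.0735) was 0.36 without it (edgeR adjusted p 0.000610). Relative to the summed level per length, NR1H2 made up 70.1 ± 2.76% (SD, n = 3) in control and 81.1 ± 1.25% (SD, n = 3) in KO libraries (exact permutation p 0.1, two-sided, the smallest possible). NR1H3 shares 189 exon bases with ACP2 on the opposite strand, which had a log2 fold change of 0.06.

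Of 9 tested LXR target genes, 4 fell (44.44%) and 2 rose (22.22%), where 8.39% and 7.57% of all tested genes did. The lower ones were the sterol exporters ABCG1 (-0.95) and ABCA1 (-0.57), the phospholipid enzyme LPCAT3 (-0.68, edgeR adjusted p 3.97e-08) and MYLIP (-0.43), which promotes decay of the LDL receptor. LPCAT3 shares 3096 exon bases with EMG1 on the opposite strand, which had a log2 fold change of -0.20. The apolipoprotein genes APOC1 and APOE were higher (0.71 and 0.95), and APOE stood below 1 CPM with an edgeR adjusted p of 0.0338, which was over 0.05 without control replicate 1 or 3 or KO replicate 2 or 3 and reached 0.139. APOE had enough counts to be tested only because of its KO libraries. When all genes with any counts were kept, its edgeR adjusted p was 0.0714. SREBF1 (-0.29) and SCD (-0.34) passed the adjusted p but not the fold threshold.

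Among the steroid receptors, the glucocorticoid receptor NR3C1 and the mineralocorticoid receptor NR3C2 were expressed. NR3C2 (ENSG00000151623.10, chromosome 4, 148999913 to 149365850, minus strand) had 3.30, 2.99 and 2.91 CPM in control and 2.44, 1.86 and 1.27 CPM in KO libraries. The groups did not overlap, the KO libraries were the more scattered, and NR3C2 fell by 0.74 on the log2 scale (SE 0.19, edgeR adjusted p 0.00402). NR3C1 had 128, 137 and 133.6 CPM in control and 154.6, 137.1 and 148.6 CPM in KO libraries, with a log2 fold change of 0.14 (SE 0.070, edgeR adjusted p 0.130). Of 11 tested glucocorticoid target genes, 4 fell (36.36%) and 3 rose (27.27%), where 8.39% and 7.57% of all tested genes did. SCNN1A, an epithelial sodium channel subunit, had a log2 fold change of -1.11, KLF9 of -0.70, PER1 of -0.42 and TSC22D3 (GILZ) of -0.42. ERRFI1, a feedback inhibitor of EGF receptor signalling, had 0.86, the cell cycle inhibitor CDKN1C 0.77 and the receptor chaperone FKBP5 0.63. SCNN1A shares 422 exon bases with LTBR, which had a log2 fold change of -0.34.

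For the estrogen receptor and its relatives, differences were small or not measurable. ESR1 had a log2 fold change of -0.24 (SE 0.30, edgeR adjusted p 0.596), and ESRRG of -0.09 (SE 0.34, edgeR adjusted p 0.869), and the latter turned positive when control replicate 3 (0.28) or KO replicate 2 (0.02) was left out. ESRRA had 56.7, 49.5 and 51.9 CPM in control and 44.9, 47.2 and 41.9 CPM in KO libraries, without overlap, and a log2 fold change of -0.24 (SE 0.080, edgeR adjusted p 0.0241) under the fold threshold. Its adjusted p was over 0.05 in 4 of the 6 fits that left out 1 library, without control replicate 1 or 3 or KO replicate 1 or 3, and reached 0.106. ESRRA shares 284 exon bases with TRMT112 on the opposite strand, which stood at 205 CPM with a log2 fold change of -0.17. Of 7 tested estrogen target genes, 0 were called by edgeR, where 16.0% of all tested genes were. XBP1 alone passed the adjusted p (0.25, edgeR adjusted p 0.0102). It was also the 1 gene of this list with an unadjusted p under 0.05, and DESeq2 called 0.

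VDR, the vitamin D receptor, had 17.1, 15.5 and 14.5 CPM in control and 14.8, 14.6 and 15.1 CPM in KO libraries. The groups overlapped, and the log2 fold change was -0.08 (SE 0.096, edgeR adjusted p 0.561), with an approximate 95% interval of -0.27 to 0.11. Of 5 tested vitamin D target genes, 3 rose and 1 fell, where 7.57% and 8.39% of all tested genes did. The other 6 of the 11 listed genes had too few counts to be tested. CYP24A1, which degrades active vitamin D, had 0.134, 0.246 and 0.118 CPM in control and 2.17, 2.14 and 2.68 CPM in KO libraries, a log2 fold change of 3.77 (SE 0.32, edgeR adjusted p 1.74e-10) from control counts of 3, 6 and 3, at or near the floor. CYP24A1 had enough counts to be tested only because of its KO libraries, so its place among the tested genes depends on its level there. When all genes with any counts were kept, 3 genes of the list were called higher. SPP1 (0.89) and CD14 (0.62) were higher and THBD, the thrombomodulin gene, was lower (-0.77). The constitutive androstane receptor NR1I3, a xenobiotic sensor, had a log2 fold change of -0.23 (SE 0.36, edgeR adjusted p 0.674) at 0.297 to 0.847 CPM, and it turned positive when control replicate 1 (0.06) or KO replicate 3 (0.05) was left out. It shares 663 exon bases with TOMM40L, which stood at 24.3 CPM. Of the 3 tested xenobiotic and bile acid target genes, the drug efflux transporter gene ABCB1 (-2.09) and CYP3A5 (-1.05, under 1 CPM on average) were lower, where 8.39% of all tested genes were. CYP3A5 was not called without control replicate 2 (edgeR adjusted p 0.112) or KO replicate 2 (0.0764).

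The RXRs, partners of the retinoic acid, thyroid hormone, vitamin D, PPAR and oxysterol receptors, were not called. RXRA had 56.7, 44.02 and 44.6 CPM in control and 43.4, 48.2 and 39.8 CPM in KO libraries, with a log2 fold change of -0.14 (SE 0.093, edgeR adjusted p 0.259). RXRB had 12.8, 11.0 and 12.4 CPM in control and 12.1, 14.1 and 13.9 CPM in KO libraries, with a log2 fold change of 0.15 (SE 0.10, edgeR adjusted p 0.281). Both sets of values overlapped between the groups. RXRB shares 361 exon bases with SLC39A7 on the opposite strand, which stood at 77.3 CPM with a log2 fold change of 0.30. The cofactors moved little as lists. By edgeR 8.39% of all tested genes were called lower and 7.57% higher. Of 14 tested coactivators, PPARGC1A (PGC-1 alpha), a coactivator of PPARs and ESRRA, alone was called, and it fell by 0.63 on the log2 scale (SE 0.085, edgeR adjusted p 1.41e-06), from 40.4 ± 1.06 to 26.2 ± 2.58 CPM (SD, n = 3). Of 11 tested corepressors 0 were called by edgeR, an unadjusted p below 0.05 was met by 4 lower and 3 higher genes and DESeq2 called 0, while 3 were lower and 2 higher by the adjusted p alone, where 14.3% and 15.2% of all tested genes were. TBL1X (0.37), just under the fold threshold in both tools, and the demethylase KDM1A (-0.34) had the largest of these differences.

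The COUP-TFs and the testicular orphan receptors were not called either. NR2F2 had 249.4, 247.8 and 262.6 CPM in control and 234.5, 214.3 and 237.6 CPM in KO libraries, without overlap, and a log2 fold change of -0.15 (SE 0.069, edgeR adjusted p 0.109). NR2F1 (0.14), NR2F6 (0.12), NR2C1 (-0.19) and NR2C2 (0.08) had edgeR adjusted p between 0.125 and 0.531. NR2C1 passed the adjusted p without control replicate 1 (edgeR adjusted p 0.00526). In the annotation used here NR2C2 shares 7157 exon bases with MRPS25 on the opposite strand. Its counts are uncertain, as the exons that were counted may share them too.

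HNF4G (ENSG00000164749.7, chromosome 8, 76320149 to 76479069, plus strand), an orphan receptor of gut and kidney epithelia, had 6.55, 8.35 and 7.86 CPM in control and 5.05, 4.36 and 3.57 CPM in KO libraries. The groups did not overlap, and HNF4G fell by 0.83 on the log2 scale (SE 0.14, edgeR adjusted p 3.08e-05). NR6A1 (ENSG00000148200.12, chromosome 9, 127279554 to 127533590, minus strand), the germ cell nuclear factor, had 13.8, 13.1 and 12.6 CPM in control and 8.04, 7.77 and 6.25 CPM in KO libraries, and it fell by 0.84 (SE 0.11, edgeR adjusted p 8.65e-07). NR5A2 (ENSG00000116833.9, chromosome 1, 199996742 to 200146548, plus strand), the liver receptor homolog LRH-1, rose instead. It had 2.76, 3.19 and 3.14 CPM in control and 4.56, 5.63 and 4.42 CPM in KO libraries, all KO values above all control values. The log2 fold change was 0.69 (SE 0.15, edgeR adjusted p 0.000732). In the summed level per length of the NR5 and NR6 receptors, NR5A2 made up 17.8 ± 1.67% (SD, n = 3) in control and 38.3 ± 2.99% (SD, n = 3) in KO libraries (exact permutation p 0.1, two-sided, the smallest possible).

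The NR4A receptors are immediate early orphan receptors, and all were low. NR4A3 (ENSG00000119508.13, chromosome 9, 102584137 to 102629173, plus strand) had 4, 9 and 6 counts in control and 13, 13 and 11 counts in KO libraries, and a log2 fold change of 1.06 (SE 0.40, edgeR adjusted p 0.0473). The call was lost in 7 of 11 alternatives, with an adjusted p between 0.0416 and 0.225 over them, 5 of the 7 being fits that left out control replicate 1 or 3 or any 1 of the KO replicates. NR4A3 had enough counts to be tested only because of its KO libraries. When all genes with any counts were kept, its edgeR adjusted p was 0.0967. NR4A2 had 2.36, 2.01 and 2.08 CPM in control and 1.58, 1.43 and 1.61 CPM in KO libraries, without overlap, and a log2 fold change of -0.48 (SE 0.19, edgeR adjusted p 0.0612). NR4A1 had a log2 fold change of -0.25 (SE 0.21, edgeR adjusted p 0.394).

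**Figure D4:**
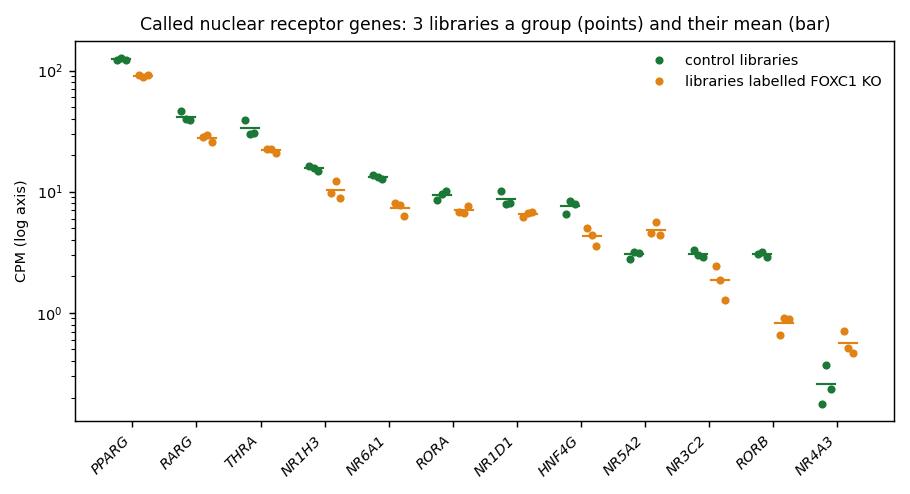
CPM (log axis) of the 12 called receptor genes in each of 3 control libraries and 3 libraries labelled FOXC1 KO (points) with group means (bars), in order of the mean over all libraries. The points of the groups do not overlap for any of the 12 genes, and NR4A3 lies lowest, at 0.178 to 0.706 CPM.

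The genome neighbourhood of the 12 called members was described last, a measure chosen after their values had been seen. Over the tested genes that started within 1 Mb, the median log2 fold change was -0.54 near HNF4G (4 genes, 2 called lower and 0 higher), -0.32 near RORB (5 genes, 0 and 0) and -0.29 near RORA (3 genes, 0 and 0). It was -0.17 near RARG (39 genes, 7 lower and 2 higher) and -0.15 near NR4A3 (10 genes, 1 lower and 2 higher). Near the other 7 members the median lay between -0.06 (NR1H3) and 0.12 (PPARG), with 0 to 3 genes called lower and 0 to 2 higher near each. Over all tested genes 8.39% were called lower and 7.57% higher. Within 3 Mb the medians were -0.11 near HNF4G, -0.12 near RORB, -0.13 near RORA, -0.08 near RARG and -0.20 near NR4A3, so those near HNF4G, RORB, RORA and RARG were closer to 0 in the wider window. THRA and NR1D1 share most of their neighbours.

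Over all pathway lists, 29 of 98 tested genes were lower (29.59%) and 12 higher (12.24%), where 8.39% and 7.57% of all tested genes were, with a median log2 fold change of -0.094. The lists were chosen with earlier results of these libraries known. The clock partners had the lowest median of the lists with at least 5 tested genes (-0.458), and the vitamin D targets the highest (0.617). Among the called genes, CYP24A1 and APOE had enough counts to be tested only because of their KO libraries. CYP3A5 and CRYM had enough only because of their control libraries.

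**Figure D5:**
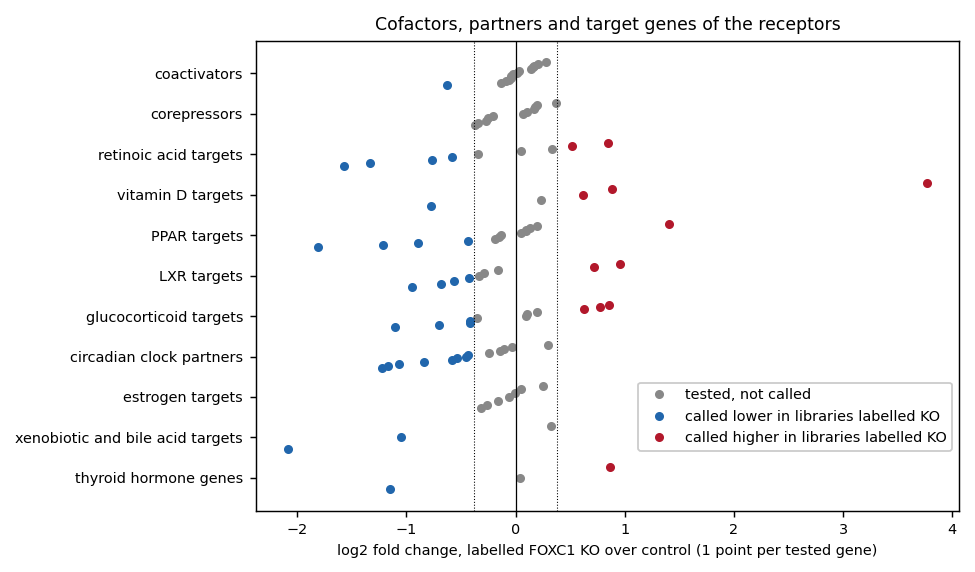
Log2 fold change (libraries labelled FOXC1 KO over control, horizontal axis) of each tested gene in the lists of cofactors, clock partners and target genes, 1 point per gene with a vertical offset for visibility. Dotted lines mark a 1.3-fold change. CYP24A1 stands at 3.77 on the right, ABCB1 at -2.09 on the left, and the cofactors other than PPARGC1A lie near 0.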

How the data were processed

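RNA-seq libraries of polyadenylated transcripts from J82 cells (3 control, 3 labelled FOXC1 KO) were analysed from the deposited table of raw read counts per gene. The authors had aligned paired reads to hg19 with STAR and counted them on GENCODE genes with featureCounts of Subread, as the methods and the submitters' processing notes state. Tool versions and the settings for strand and for reads matching several places are not given in the sources used here, so overlapping and antisense genes are uncertain. All rows named a gene, and 0 columns belonged to other samples.

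Gene identifiers were matched to a GENCODE annotation of GRCh37 (55538 of 57820 rows, 96.05%), which also gave coordinates, union exon lengths and shared exon bases. It was a later release than the one the authors counted on. Levels per length and shared exon bases can therefore differ from those of the exons that were counted. NR2E3, NCOA4 and PECAM1 were not matched and are not analysed here. Some genes of the lists are counted but not reported here by name. Groups were taken from the sample titles. Libraries of a group were distinct, with a chi-square per gene of 2.94 to 10.1 between them, and Pearson correlations across genes of 0.9965 to 0.9983.

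Genes were filtered with filterByExpr, scaled with TMM and tested in edgeR 4.0.16 (R 4.3.3) with robust quasi-likelihood fits, group as the 1 term, fitted on all 15647 kept genes with Benjamini-Hochberg adjustment over them. Calls required an adjusted p below 0.05 and more than a 1.3-fold change, thresholds taken from the study's methods, and DESeq2 (1.42.0), the authors' own tool, was run as an alternative. CPM were computed from the counts with TMM-scaled library sizes, standard errors were derived from the F statistic, and approximate 95% intervals are 1.96 standard errors on each side. Shares within a subfamily were computed from CPM per kilobase and compared with exact permutation tests in scipy 1.17.1. The floor of 3 counts covers counting error only.

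Members and lists were chosen with earlier results of these data known. All members were accounted for, with values per library for called members and for expressed members of the roles described. In the lists, called genes were to be named, at most 5 by smallest p, and list genes named beyond that were chosen after their values were seen. Promoter windows came from RefSeq (GRCh38.p14), another build than that of the counts. The procedure was tested on simulated counts of 15647 genes with 200 changed, where 87.8% of genes lowered and 94.0% of genes raised by 1 on the log2 scale were called. Changes under 1 on the log2 scale, the size seen in most called members, were not simulated. In the data 2497 genes were called, many more than were changed in the simulation. Other alternatives were RLE or unscaled library sizes, all genes with any counts kept, only genes averaging 50 counts or more, libraries thinned to equal depth, a replicate block, each library left out, the adjusted p alone and a fold change over 2.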

Additional observations from a re-analysis of the deposited data

How the results depend on the processing

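The lower receptor genes numbered 9 to 11 over the alternatives other than the adjusted p alone, which gave 12, and a 2-fold threshold, which left 1, and 9 to 11 when each library was left out in turn. The higher ones numbered 1 with DESeq2, without a low-count filter, with a mean of at least 50 counts, after thinning and at over 2-fold, 4 with the adjusted p alone, and 1 to 2 with 1 library left out. The members' median log2 fold change then ranged from -0.205 to -0.112, the latter without KO replicate 3. A 2-fold threshold left 0 lower coactivators, 2 lower and 0 higher retinoic acid targets, 0 lower and 1 higher vitamin D targets, 2 lower PPAR targets, 0 lower and 0 higher LXR targets, 1 lower and 0 higher glucocorticoid targets, 3 lower clock partners and 0 higher thyroid hormone genes. The adjusted p alone gave 2 higher coactivators, 3 lower and 2 higher corepressors, 2 higher PPAR targets, 1 higher clock partner and 1 higher estrogen target. Both follow from how these settings are built. Higher LXR targets numbered 1 with DESeq2, no filter, a mean of at least 50 counts and thinning, higher vitamin D targets 1 with a mean of at least 50 counts, and higher corepressors 1 after thinning. Lower xenobiotic targets numbered 1 and lower thyroid hormone genes 0 with DESeq2 and with a mean of at least 50 counts, and the latter 0 after thinning. With each library left out in turn, corepressors numbered 0 to 1 in each direction (1 lower without KO replicate 1, 1 higher without control replicate 1 or KO replicate 3), higher coactivators 0 to 1 (1 without control replicate 1), higher retinoic acid targets 2 to 3, higher LXR targets 1 to 2, lower xenobiotic targets 1 to 2 and lower thyroid hormone genes 0 to 1. The cause of these shifts was not tested. Among single genes, 920 values stayed on the same side of 0 and of the 0.05 threshold, 29 lost significance, 4 gained it and 5 changed sign. The last were in NR1D2 (range -0.02 to 0.10, negative without control replicate 1), NR1I3 (range -0.46 to 0.06, positive at 0.06 without control replicate 1 and 0.05 without KO replicate 3) and ESRRG (range -0.33 to 0.28, positive at 0.28 without control replicate 3 and 0.02 without KO replicate 2), none of them called. Another scaling shifted the median over all tested genes by no more than 0.008 in size.

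Libraries with the same replicate number were treated as unpaired. Their deviations from the means of their groups correlated at -0.0497, -0.175 and 0.096, so no clear effect shared by replicate number was seen. These values cannot show whether the libraries were handled in pairs. With the number as a block, 10 members were lower and 2 higher with a median of -0.166, and NR1H2 passed the adjusted p (edgeR adjusted p 0.0364). Thinned to the smallest library, NR1H2 also passed (edgeR adjusted p 0.0429) and 11 members were lower. The values of NR4A3, NR1I3, ESR1 and ESRRG, which lay below 1 CPM, rest on few counts.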
